A study of Mus musculus with 9 samples.

Results

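Cytochrome P450 genes were described in RNA from liver of 9 male FVB mice, an inbred laboratory strain, in 3 groups of 3 libraries. The members were the symbols of the deposited table that begin with Cyp and a digit. Of the 24419 symbols in the table, 105 matched, and 75 of these held at least 1 count over the 9 libraries. The other 30 stood at 0 in all libraries. One match at 0, Cyp4x1os, is an antisense symbol, and 4 more at 0 are pseudogenes. The CTRL livers came from mice aged 13, 13 and 17 weeks. The MODEL1 animals, each aged 18 weeks, had received NFE2L2 G31A with CTNNB1 T41A. The MODEL2 animals, aged 19, 20 and 22 weeks, had received NFE2L2 T80K with CTNNB1 T41A. NFE2L2 encodes NRF2, the transcription factor of the antioxidant response, and CTNNB1 encodes beta-catenin, the effector of Wnt signalling. Both models were made at 6 to 8 weeks of age by injecting 20 µg of each plasmid in 2 ml saline into the tail vein under pressure. This hydrodynamic route puts plasmid into a part of the hepatocytes, and a Sleeping Beauty transposase given with it inserts the cargo into their genome. Whether the sequenced CTRL animals were injected is not given in the labels. The series' design text speaks of controls with T41A beta-catenin and unmutated NFE2L2 studied 14 weeks after injection, an age these CTRL mice had not reached. No group carried an NFE2L2 or CTNNB1 change alone, and the labels do not say whether tumour or surrounding tissue was taken.

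P450 enzymes are haem proteins of the endoplasmic reticulum and mitochondria that insert an oxygen atom into their substrates, with electrons passed on from NADPH by the reductase Por. Members of the Cyp1, Cyp2 and Cyp3 families mostly oxidise drugs, foreign compounds and steroids, Cyp4 enzymes act on fatty acids, and Cyp7, Cyp8 and Cyp27 enzymes make bile acids from cholesterol. In liver several P450 genes are transcribed mainly in the hepatocytes around the central vein, where beta-catenin is active, and others differ strongly between male and female mice.

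The results turn mostly on Cyp2a5 and Cyp2a4, which lie in a P450 cluster on chromosome 7 and are near-identical copies. Their upstream sequences are shown because the copies moved together and because reads of such copies can be split between them. The RefSeq promoter windows of the pair, 250 bases before to 50 after the start, were identical in 294 of 301 aligned columns (97.7%), with 5 mismatches and 2 gap columns. The stretch upstream of both annotated gene starts is printed 5′ to 3′ on the plus strand of GRCm38.p6, which is the C57BL/6J reference and not FVB. Capitals mark the 4 mismatches that fall in it.
Cyp2a5, chr7:26835089-26835304: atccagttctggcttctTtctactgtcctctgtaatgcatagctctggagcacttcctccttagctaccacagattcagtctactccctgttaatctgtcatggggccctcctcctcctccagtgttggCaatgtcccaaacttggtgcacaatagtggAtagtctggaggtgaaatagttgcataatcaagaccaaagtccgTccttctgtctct
Cyp2a4, chr7:26306942-26307158: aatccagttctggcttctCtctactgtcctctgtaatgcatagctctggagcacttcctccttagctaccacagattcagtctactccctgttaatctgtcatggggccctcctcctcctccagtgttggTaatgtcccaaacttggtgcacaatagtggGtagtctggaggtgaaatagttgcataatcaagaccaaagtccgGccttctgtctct

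Library totals ran from 219504 to 325177 counts, and P450 genes held 0.106% to 0.150% of them in CTRL, 0.145% to 0.367% in MODEL1 and 0.142% to 0.153% in MODEL2. A library in which a gene has no count still allows up to 3 counts of it, equal to 9.43 to 14.6 CPM. CPM here stands for counts per 1000000 counts of the tested genes, after scaling with edgeR's TMM factors. Rn45s, the ribosomal RNA precursor, held 2.20% to 13.4% of counts and over 8% in CTRL library 1 and MODEL1 libraries 1 and 3. Those 3 are called rich in Rn45s. CTRL library 3, from the 17-week mouse, stood apart from the other CTRL libraries for Cyp26c1, Cyp2d40, Cyp2c67 and Glul. Values without it or with age as a covariate are given for Cyp26c1 and Cyp2d40, and values without it for Cyp2c67. Of 8 hepatocyte markers all had counts, and their summed level was 2403 to 2855 CPM in CTRL, 1085 to 1606 in MODEL1 and 1419 to 1891 in MODEL2. The summed level of 6 macrophage markers was 28.3 to 53.4, 56.6 to 106 and 30.7 to 40.7 CPM in the same order, with Adgre1 at 0. Markers of stellate cells and fibroblasts summed to 0 to 16.2, 17.0 to 22.8 and 0 to 8.13 CPM. Of 5 cholangiocyte markers, Krt7, Epcam and Spp1 were at 0, and the list summed to 0 CPM in CTRL, 8.50 to 12.6 in MODEL1 and 0 to 4.32 in MODEL2. Endothelial markers held 280, 192 and 253 counts in CTRL, MODEL1 and MODEL2. The erythroid list held 239, 321 and 173 counts, although Hba-a1, Hbb-bs and Hbb-bt were at 0. The exocrine pancreas list held 58, 61 and 69 counts, with Prss1 and Cpa1 at 0. The neutrophil markers S100a8 and S100a9 were at 0. Lists for T and NK cells and for B cells held at most 4 counts per group. Marker sums and zeros may therefore not follow the number of cells of a type. The part of the marker levels in the P450 differences was not tested. Symbols with an exon opposite an exon of another gene were 9 of the 74 placed P450 symbols and held 13.2% of P450 counts. Among all placed symbols they were 24.2% and held 79.0% of the counts. The strand setting of the counting is not given in the sources used here. Whether counts come from the strand of their gene was not tested. Levels and zeros may therefore not be those of a gene's own transcript. The value 2 occurred 80 times and the value 1 occurred 45 times among the P450 counts. A count may therefore not be 1 independent read, and the 95% counting intervals given with ratios, which cover counting error only, may be too narrow.

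Cytochrome P450 counts were higher in MODEL1 than in CTRL as a sum, and most of the difference lay in 2 genes. The 3 CTRL libraries held 322, 263 and 365 P450 counts, the MODEL1 libraries 441, 805 and 746, and the MODEL2 libraries 431, 343 and 379. The summed CTRL level was 1369 ± 140 CPM (SD, n = 3), that of MODEL1 2479 ± 881 and that of MODEL2 1559 ± 87.0. Every MODEL1 library exceeded the highest CTRL library, with a ratio of 1.78 (95% counting interval 1.64 to 1.92). The ratio was 2.42 without the libraries rich in Rn45s, where MODEL1 is its library 2 alone, the highest of the 3. The MODEL2 and CTRL libraries overlapped, with a ratio of 1.14 (1.04 to 1.24). With Cyp2a5 and Cyp2a4 left out, the ratio to CTRL was 1.14 (1.05 to 1.24) for MODEL1 and 0.969 (0.883 to 1.06) for MODEL2, with overlapping libraries in both. In these bulk samples, fewer cells of a type and less RNA per cell cannot be told apart. Sums were described without a test.

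**Figure D1:**
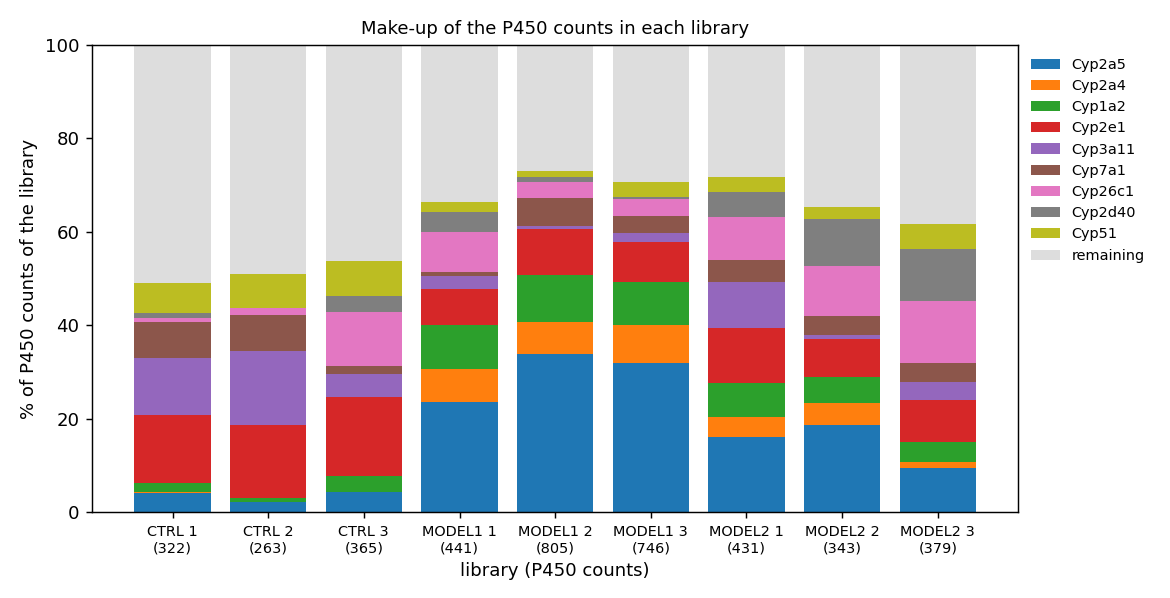
Share of each library's P450 counts (y axis, %) held by 9 genes and by the remaining symbols, for the 9 libraries on the x axis with their P450 counts in brackets. Cyp2a5 is the largest share in all 3 MODEL1 libraries and in MODEL2 libraries 1 and 2, Cyp26c1 in MODEL2 library 3, and Cyp2e1 or Cyp3a11 in CTRL.

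The leading gene differed between the groups. In CTRL, Cyp2e1 held 15.8% of the P450 counts, Cyp3a11 10.4% and Cyp51 7.05%. In MODEL1, Cyp2a5 held 30.9%, Cyp1a2 9.64% and Cyp2e1 8.94%. In MODEL2, Cyp2a5 held 14.7%, Cyp26c1 10.9% and Cyp2e1 9.80%. Per kilobase of exon, the scale on which genes can be compared, the highest CTRL mean was 100.2 CPM per kb, for Cyp2e1. The next, 39.6 for Cyp26c1, rested on CTRL library 3 and was 9.02 without it. The highest in MODEL1 were 371 for Cyp2a5 and 119 for Cyp1a2, followed by Cyp2e1 at 103.5 and Cyp2a4 at 102.7. In MODEL2 Cyp2a5 stood at 111 CPM per kb, Cyp26c1 at 97.8 and Cyp2d40 at 75.0.

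Pooled counts of the subfamilies differed in direction between groups, and those of Cyp1, Cyp2a, Cyp2b, Cyp2d and Cyp3a mostly followed 1 gene each. Cyp1 counts went from 22 in CTRL to 194 in MODEL1, a ratio of 7.47 (4.80 to 12.2), and to 72 in MODEL2, a ratio of 3.07 (1.88 to 5.20). Cyp2a counts went from 63 to 765, a ratio of 10.3 (7.95 to 13.5), and to 227, a ratio of 3.38 (2.55 to 4.54). Of these, Cyp2a5 held 35, 616 and 169 in CTRL, MODEL1 and MODEL2, and Cyp2a12 held 27, 4 and 18. No CTRL library held a Cyp2b count, while MODEL1 held 79, of which 64 were Cyp2b9, and MODEL2 18, of which 15 were Cyp2b9. For these 3 subfamilies each model's libraries lay above the CTRL libraries. Cyp3a counts were 120, 61 and 74, with all MODEL1 libraries below CTRL at a ratio of 0.431 (0.311 to 0.591) and overlap in MODEL2. Without Cyp3a11 they were 21, 31 and 14. Cyp2d counts were 86, 98 and 155, with all MODEL2 libraries above CTRL at a ratio of 1.69 (1.29 to 2.23) and overlap in MODEL1. Without Cyp2d40 they were 70, 65 and 56, and without Cyp1a2 the Cyp1 counts were 2, 2 and 6. The libraries of each model overlapped those of CTRL for Cyp2c, Cyp2e, Cyp4a, Cyp7, Cyp8 and the 29 remaining symbols. In MODEL2 against MODEL1, all MODEL2 libraries lay lower for Cyp1 (ratio 0.411, 0.309 to 0.541), Cyp2a (0.328, 0.282 to 0.381) and Cyp2b (0.252, 0.142 to 0.425) and higher for Cyp2d (1.75, 1.35 to 2.28), where the pooled counts again follow Cyp2d40.

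**Figure D2:**
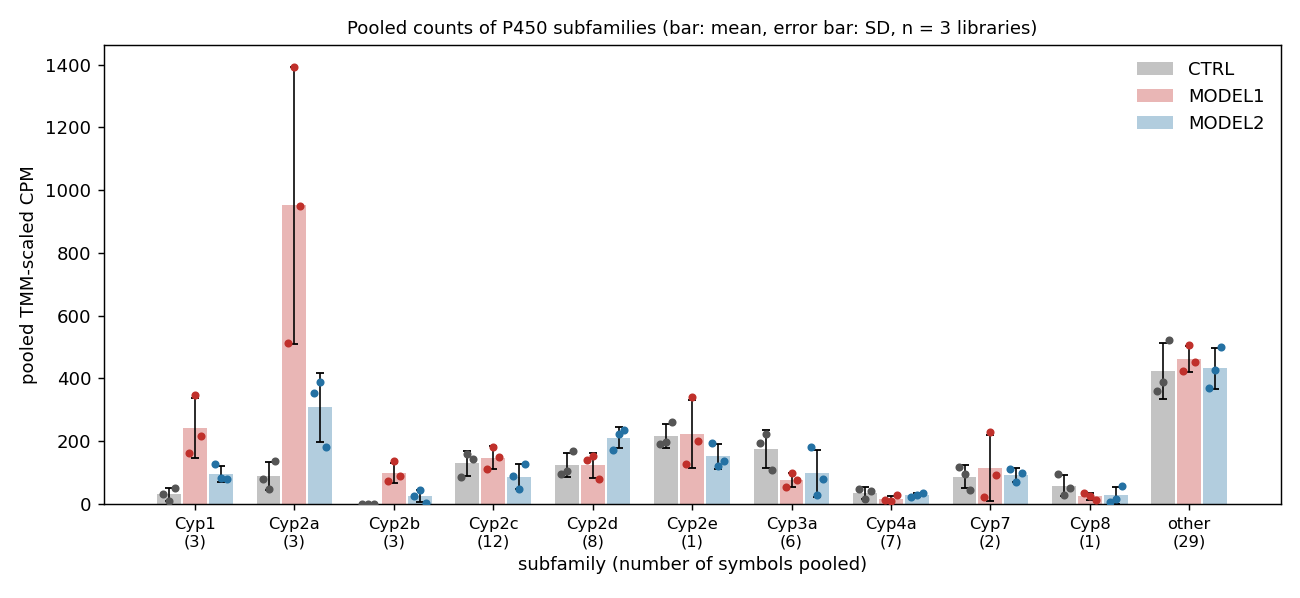
Pooled level of each P450 subfamily (y axis, CPM; number of symbols under each name) in CTRL, MODEL1 and MODEL2, with bars for means, error bars for the SD and points for the 3 libraries. Cyp2a stands at 952 ± 441 in MODEL1 against 89.2 ± 45.5 in CTRL, while Cyp2c and Cyp7 points of the groups overlap.

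Only 14 of the 75 symbols passed the filter on low counts and entered the main fit, edgeR's quasi-likelihood test over 2639 genes and a call at an adjusted p under 0.05. Another 28 symbols held at least 10 counts without passing, and 33 held 1 to 9 counts, at most 6 in any group. The filter asks for about 10 counts in 3 libraries. Of the 14, only Cyp2e1, Cyp3a11 and Cyp51 had 10 counts in every CTRL library. The 6 genes called higher in a model, 3 of which had at most 2 counts in any CTRL library, passed with the help of the model libraries. The counts of calls below are therefore descriptions of the genes in this fit and support nothing about P450 genes as a whole. Passing a test, below, means this fit unless the fit without a filter is named. In MODEL1 against CTRL, 5 of the 14 were higher (35.7%, against 11.9% of all tested genes) and 1 was lower (7.14%, against 11.0%). The 5 higher were Cyp1a2, Cyp2a4, Cyp2a5, Cyp2b9 and Cyp2g1, and the lower was Cyp3a11. In MODEL2 against CTRL, 6 were higher (42.9%, against 8.30% of all tested genes), the same 5 genes and Cyp2d40. None was lower by edgeR, where 4.96% of all tested genes were. None of the 14 was lower at an unadjusted p under 0.05, or by DESeq2, which called 5.04% of all tested genes lower. In MODEL2 against MODEL1, Cyp1a2, Cyp2a4 and Cyp2a5 were lower (21.4% of the 14, against 3.41%). None was higher by edgeR (3.87% of all tested genes) or DESeq2 (3.26%), and 1 had an unadjusted p under 0.05. The 14 genes had median log2 fold changes of 0.77, 0.99 and -0.56 in the 3 comparisons, and all tested genes had medians of 0.00, 0.00 and 0.01. Both model comparisons use the same CTRL libraries.

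Most of the 75 P450 symbols did not separate the groups, and the counts that follow include those 14. Outside the 14, the fit without a filter called only Cyp2a12, in MODEL1. In a fit of all 14907 symbols with at least 1 count, 7 of the 75 were called in MODEL1 against CTRL (9.33%, against 4.15% of all), 6 in MODEL2 (8.00%, against 2.03%) and 4 in MODEL2 against MODEL1 (5.33%, against 1.17%). Medians over the 75 were -0.11, -0.09 and -0.16 on the log2 scale, and over all symbols 0.00, 0.00 and -0.01. In MODEL1, 8 of the 75 had all libraries above CTRL (10.7%, against 7.56% of all symbols with counts) and 4 had all below (5.33%, against 5.88%). In MODEL2, 6 lay above (8.00%, against 4.98%) and 3 below (of 75, against 5.42% of all symbols). In MODEL2 against MODEL1, 3 of the 75 lay above (against 4.10% of all symbols) and 9 below (against 6.17%). The share lying below CTRL was thus near the background in both models. The p-values measure the spread between these libraries, which may in part be technical.

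**Figure D3:**
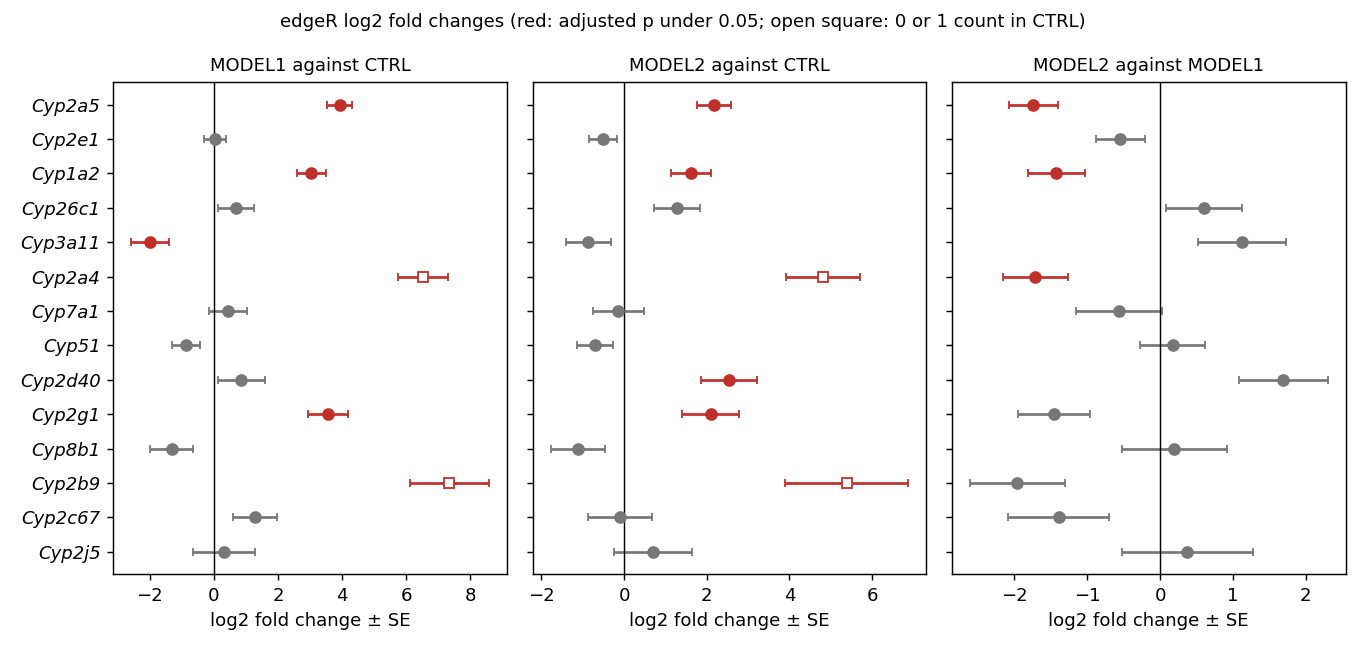
Log2 fold changes with standard errors from edgeR (x axes, scaled separately) for the 14 tested P450 genes in the 3 comparisons; red marks an adjusted p under 0.05, and open squares mark genes with 0 or 1 count in CTRL, whose fold depends on the prior count. Cyp2a5 is at 3.92 in MODEL1, 2.18 in MODEL2 and -1.74 between the models.

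Cyp2a5, which hydroxylates coumarin and nicotine and is a known NRF2 target in mouse liver, held 13, 6 and 16 counts in CTRL libraries 1 to 3. It held 104, 273 and 239 counts in MODEL1 and 69, 64 and 36 in MODEL2 (chromosome 7, 26835305 to 26843548, mm10). The 3 groups did not overlap, and MODEL1 stood highest. Its level was 49.6 ± 19.1 CPM in CTRL, 769 ± 383 in MODEL1 and 229 ± 72.0 in MODEL2. The log2 fold change was 3.92 ± 0.40 (SE; edgeR adjusted p = 1.4e-07) in MODEL1 and 2.18 ± 0.41 (adjusted p = 0.000842) in MODEL2. MODEL2 was lower than MODEL1 by a log2 change of -1.74 ± 0.34 (edgeR adjusted p = 0.00241), a call kept under all 16 alternatives. The call in MODEL2 was lost with age as a covariate, at 2.35 ± 0.88 and an edgeR adjusted p of 0.225. Age and group cannot be told apart here, since every model mouse was older than every CTRL mouse. Several marker sums, given above, also separated MODEL1 from CTRL. Those of hepatocytes and endothelial cells were lower in MODEL1. Those of macrophages, of stellate cells and fibroblasts, and of cholangiocytes were higher. The gap was narrow for macrophages (CTRL up to 53.4 CPM, MODEL1 from 56.6) and for stellate cells and fibroblasts (up to 16.2, from 17.0). The cholangiocyte sums rested on 9 counts in MODEL1 and 0 in CTRL. Hepatocyte sums were also lower in MODEL2 than in CTRL, at 1419 to 1891 against 2403 to 2855 CPM. The part of these sums was not tested.

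Cyp2a4, a steroid hydroxylase expressed mainly in female liver, held 1, 0 and 0 counts in CTRL, 31, 54 and 60 in MODEL1 and 19, 16 and 5 in MODEL2. These male CTRL livers thus held next to none, and each model library held more than all CTRL libraries together. The ratio of scaled counts to CTRL was 123 (21.7 to 4885; edgeR adjusted p = 1.4e-06) in MODEL1 and 37.5 (6.36 to 1518; adjusted p = 0.000641) in MODEL2. Between the models the log2 change was -1.71 ± 0.45 (edgeR adjusted p = 0.0242), a call lost under 5 of 16 alternatives. Of the 50-base stretches in Cyp2a4 transcripts, 36.1% also occur in Cyp2a5, and 28.1% of those in Cyp2a5 occur in Cyp2a4. How the counting treated such reads is not given in the sources used here, so the split between the copies is uncertain. An exon of Gm42375 lies opposite Cyp2a4.

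Cyp2a12, another steroid hydroxylase of the cluster, went the other way. It held 6, 4 and 17 counts in CTRL, 0, 1 and 3 in MODEL1 and 4, 10 and 4 in MODEL2. All MODEL1 libraries were below CTRL and below MODEL2, and MODEL2 overlapped CTRL. It did not pass the filter. In the fit without a filter its log2 fold change in MODEL1 was -2.90 ± 0.88 (edgeR adjusted p = 0.0262) and in MODEL2 -0.57 (adjusted p = 0.775). Its 20.1% of 50-base stretches shared with another gene are shared with Cyp2a22, which was at 0.

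**Figure D4:**
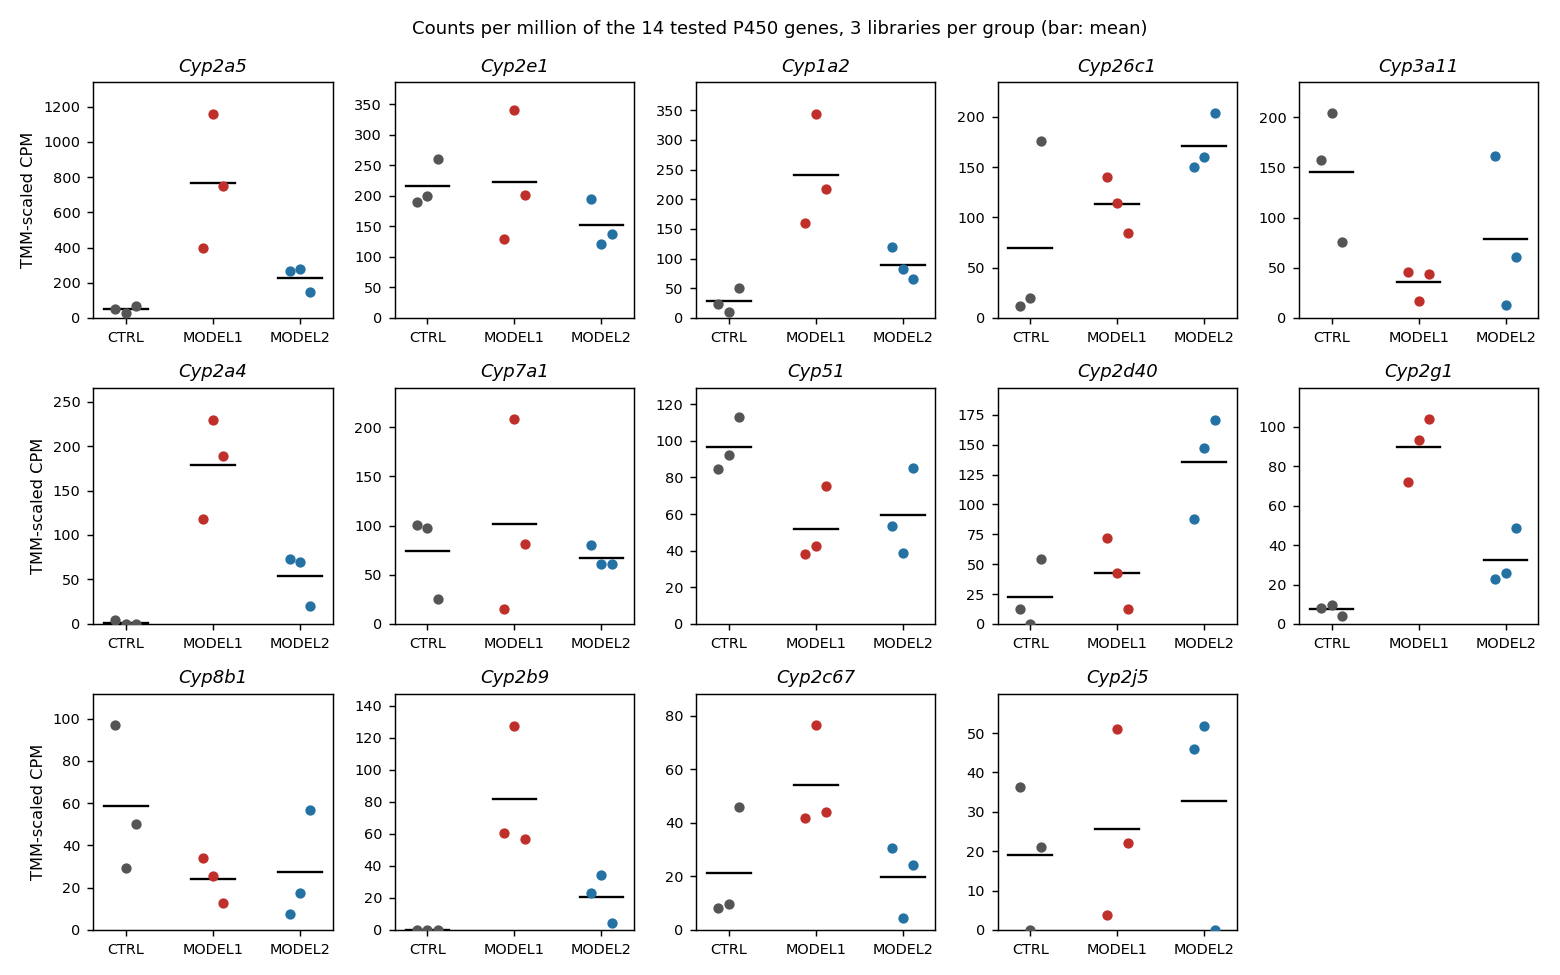
Level of each of the 14 tested P450 genes (y axes, CPM, separate scales) in the 3 libraries of CTRL, MODEL1 and MODEL2, with bars for the means. Points of Cyp2a5 in MODEL1 lie between 395 and 1160, above every CTRL and MODEL2 point. CTRL library 3 stands apart in Cyp26c1, Cyp2d40 and Cyp2c67.

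Cyp2a5 and Cyp2a4 belong to a cluster of 13 P450 symbols on chromosome 7, from Cyp2s1 to Cyp2t4. Cyp2b9, Cyp2a4, Cyp2b19, Cyp2g1 and Cyp2a5 had all MODEL1 libraries above CTRL, where 7.56% of all symbols with counts did. For Cyp2b19 this rested on 3, 2 and 10 counts in MODEL1. Cyp2s1 and Cyp2b10, which lie before these genes, held 4 and 1 counts in all and overlapped CTRL. Each counted gene beyond Cyp2a5 had the MODEL1 libraries below or overlapping CTRL. Whether place in the cluster matters was not tested. Cyp2b9, a steroid hydroxylase of female liver, held 0 counts in all CTRL libraries, 16, 30 and 18 in MODEL1 and 6, 8 and 1 in MODEL2. It was at least 18.1-fold higher in MODEL1 (edgeR adjusted p = 0.000154) and at least 4.69-fold higher in MODEL2 (adjusted p = 0.0192), against 3 counts over the CTRL group. The MODEL2 call was lost under 6 of 16 alternatives, among them leaving out MODEL2 library 2 (edgeR adjusted p = 0.0806), CTRL library 1 (0.0610) or CTRL library 3 (0.0504). Every MODEL2 library was below every MODEL1 library, with a log2 change of -1.96 ± 0.65 that did not pass the test (edgeR adjusted p = 0.0771).

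Cyp2g1, best known from olfactory tissue, held 2, 2 and 1 counts in CTRL, 19, 22 and 33 in MODEL1 and 6, 6 and 12 in MODEL2. Its 3 groups did not overlap. Its log2 fold change was 3.55 ± 0.63 (edgeR adjusted p = 0.000190) in MODEL1 and 2.09 ± 0.69 (adjusted p = 0.0478) in MODEL2. The MODEL2 call was lost under all 16 alternatives, with adjusted p from 0.0524 to 0.775 in edgeR fits and 0.0858 by DESeq2. With age as a covariate the MODEL1 change was 3.14 ± 1.02 and its edgeR adjusted p 0.0510. Cyp2b19, an epidermal enzyme of the same cluster, held 0 counts in CTRL, 3, 2 and 10 in MODEL1 and 0, 2 and 0 in MODEL2. It did not pass the filter, and in the fit without one its edgeR adjusted p in MODEL1 was 0.0958. Cyp2b10, the classic target of the nuclear receptor CAR (Nr1i3), held 1 count in all 9 libraries. Cyp2b13, Cyp2b23 and Cyp2a22 were at 0.

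Beyond Cyp2a12 in the cluster, Cyp2f2, which activates naphthalene and is a periportal gene, held 15, 16 and 8 counts in CTRL, 10, 6 and 9 in MODEL1 and 5, 4 and 6 in MODEL2. All MODEL2 libraries were below CTRL and below MODEL1, with a ratio to CTRL of 0.361 (0.185 to 0.669), and MODEL1 overlapped CTRL at 0.543 (0.315 to 0.920). It did not pass the filter, and in the fit without one its edgeR adjusted p was 0.667 in MODEL1 and 0.457 in MODEL2. An exon of Gm15883 lies opposite it. Cyp2t4, at the end of the cluster, held 23, 36 and 22 counts over the 3 libraries of CTRL, MODEL1 and MODEL2, with overlap throughout.

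**Figure D5:**
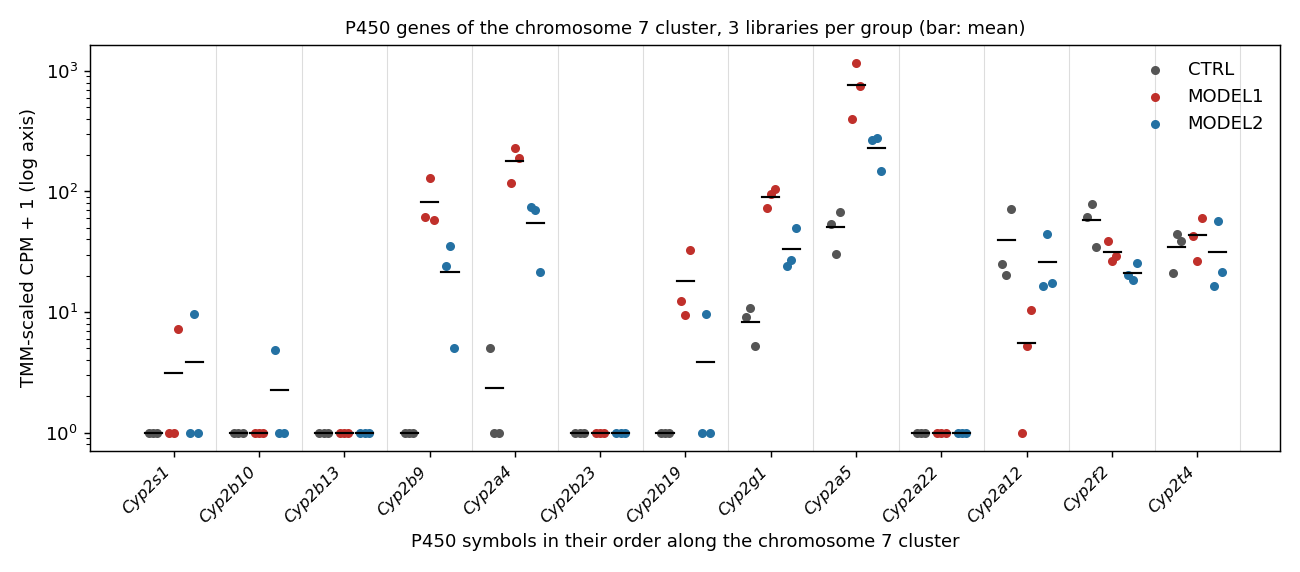
Level of the 13 P450 symbols of the chromosome 7 cluster in their order along the chromosome (x axis), as CPM plus 1 on a log axis, for the 3 libraries of each group with bars for means. Cyp2b9, Cyp2a4, Cyp2g1 and Cyp2a5 lie higher in the models than in CTRL, while Cyp2a12 and Cyp2f2 do not.

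Cyp1a2, the pericentral enzyme that metabolises caffeine and aromatic amines, held 6, 2 and 12 counts in CTRL, 42, 81 and 69 in MODEL1 and 31, 19 and 16 in MODEL2 (chromosome 9, 57676937 to 57683703). The 3 groups did not overlap, and the order was that of Cyp2a5. Its level was 28.1 ± 20.6 CPM in CTRL, 240.1 ± 94.6 in MODEL1 and 88.7 ± 27.5 in MODEL2. The log2 fold change was 3.04 ± 0.46 (edgeR adjusted p = 3.2e-05) in MODEL1, a call kept under all 16 alternatives. In MODEL2 it was 1.62 ± 0.49 (edgeR adjusted p = 0.0302), a call lost under 8 of 16 alternatives. Without CTRL library 1 or 2 the edgeR adjusted p was 0.109 or 0.101, and without MODEL2 library 1 or 2 it was 0.141 or 0.0686. Between the models the log2 change was -1.42 ± 0.39 (edgeR adjusted p = 0.0320). This call was lost without MODEL1 library 2 (edgeR adjusted p = 0.192) or 3 (0.0761), and without any 1 of the 3 MODEL2 libraries (0.0530 to 0.141). Cyp1a1, the dioxin-inducible relative of Cyp1a2, held 2, 2 and 5 counts in CTRL, MODEL1 and MODEL2, and Cyp1b1 held 1 count in all.

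Cyp2e1, the pericentral enzyme of ethanol and acetone oxidation, did not separate the groups, unlike Cyp1a2. It held 47, 41 and 62 counts in CTRL, 34, 80 and 64 in MODEL1 and 51, 28 and 34 in MODEL2. Its log2 change was 0.04 ± 0.33 (edgeR adjusted p = 0.954) in MODEL1 and -0.51 ± 0.34 (adjusted p = 0.37) in MODEL2. The difference between Cyp2e1 and Cyp1a2 in fold change was not tested. As a ratio of counts, MODEL1 against CTRL was 1.01 with a counting interval of 0.804 to 1.26.

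Cyp3a11, the main drug-metabolising Cyp3a enzyme of adult mouse liver, held 39, 42 and 18 counts in CTRL, 12, 4 and 14 in MODEL1 and 42, 3 and 15 in MODEL2. All MODEL1 libraries were below CTRL, while MODEL2 ran from 13.0 to 161 CPM and overlapped both other groups. In MODEL1 it fell by 1.99 ± 0.59 on the log2 scale (edgeR adjusted p = 0.0161). That call was lost with age as a covariate (-0.61 ± 0.81), without the libraries rich in Rn45s (-2.99 ± 1.12), without CTRL library 2 and without MODEL1 library 2. The fit without the libraries rich in Rn45s keeps MODEL1 library 2 alone in its group, which is assumed to vary like the other groups. CTRL library 3, from the 17-week mouse, was the lowest of its group. In MODEL2 the log2 change was -0.86 ± 0.54 (edgeR adjusted p = 0.343), and it was called only without MODEL2 library 1 (-1.94, adjusted p = 0.0454). Cyp3a25, a close relative, held 16, 22 and 9 counts in CTRL, MODEL1 and MODEL2, and Cyp3a59 held 2, 4 and 4, with overlap in each comparison. Cyp3a41a, Cyp3a41b and Cyp3a44, expressed mainly in female liver, were at 0.

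Cyp2d40 was the only tested P450 gene called higher in MODEL2 and not in MODEL1. This member of the subfamily of human CYP2D6 held 3, 0 and 13 counts in CTRL, 19, 10 and 4 in MODEL1 and 23, 34 and 42 in MODEL2 (chromosome 15, 82759833 to 82764183). All MODEL2 libraries were above those of both other groups, and MODEL1 overlapped CTRL. The log2 fold change was 2.54 ± 0.67 (edgeR adjusted p = 0.0129) in MODEL2 and 0.85 ± 0.73 (adjusted p = 0.456) in MODEL1. Between the models it was 1.69 ± 0.61 and did not pass the test (edgeR adjusted p = 0.101). It passed in the fit without a filter (0.0207), with 2 groups alone (0.0161) and without CTRL library 2 (0.0417). Within CTRL the 17-week mouse held 13 of the 16 counts, and with age as a covariate the MODEL2 change was -0.10 ± 1.08 (edgeR adjusted p = 0.983). Without that CTRL library it was 4.27 in MODEL2 and 2.58 in MODEL1, where it was not called (edgeR adjusted p = 0.0510). Age and group cannot be told apart for this gene. The call was also lost without CTRL library 1 (edgeR adjusted p = 0.0626), MODEL2 library 2 (0.0534) or MODEL2 library 3 (0.0648). The other Cyp2d symbols did not follow it: Cyp2d9, a male-specific steroid hydroxylase, held 18, 16 and 13 counts in CTRL, MODEL1 and MODEL2, and Cyp2d26 held 15, 31 and 23. Cyp2d22 held 14, 8 and 6 counts, Cyp2d10 held 8, 8 and 11, and Cyp2d13, which was not placed on the genome, held 11, 2 and 3.

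Cyp26c1, an enzyme of retinoic acid breakdown, showed the same split within CTRL. It held 3, 4 and 42 counts in CTRL, 37, 27 and 27 in MODEL1 and 39, 37 and 50 in MODEL2. In CTRL, the 17-week mouse stood at the level of the models, and the groups overlapped. The log2 change was 0.68 ± 0.57 (edgeR adjusted p = 0.436) in MODEL1 and 1.28 ± 0.55 (adjusted p = 0.143) in MODEL2. In the fit without a filter the MODEL2 change was called (1.34 ± 0.40, edgeR adjusted p = 0.0374). Without that CTRL library it was 2.82 in MODEL1 (edgeR adjusted p = 0.000394) and 3.42 in MODEL2 (adjusted p = 6.3e-05), and with age as a covariate it was -0.77 and -1.48. The related enzymes Cyp26a1 and Cyp26b1 held 0 and 2 counts in all.

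The Cyp2c genes, which oxidise arachidonic acid and many drugs, held 88, 120 and 65 pooled counts and overlapped in every comparison. Cyp2c67, the only one past the filter, held 2, 2 and 11 counts in CTRL, 11, 18 and 14 in MODEL1 and 8, 1 and 6 in MODEL2. All MODEL2 libraries lay below MODEL1, with a log2 change of -1.39 ± 0.69 that did not pass (edgeR adjusted p = 0.255). Of its 50-base stretches, 52.8% occur in another gene, mostly Cyp2c40 and Cyp2c69. Cyp2c29 held 20, 14 and 24 counts in CTRL, MODEL1 and MODEL2, Cyp2c39 held 6, 16 and 5, and Cyp2c50 held 11, 11 and 6, its MODEL2 libraries all below CTRL. Cyp2c44 held 17, 6 and 4 counts, of which CTRL library 2 held 12. Cyp2c54 and Cyp2c70 held 11 and 24 counts over all libraries. Cyp2c37 and Cyp2c38 held 5 and 6 counts, all in MODEL1, at 1 or 2 per library. That is fewer than the 3 counts that a library at 0 still allows. Neither was called in MODEL1 in the fit without a filter (edgeR adjusted p = 0.629 and 0.570). None of the 6 genes named before Cyp2c37 was called in that fit, where their edgeR adjusted p-values in the 2 comparisons with CTRL ran from 0.613 upward.

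Among enzymes of fatty acids, Cyp2j5, an epoxygenase, held 9, 0 and 5 counts in CTRL, 1, 12 and 7 in MODEL1 and 12, 12 and 0 in MODEL2. Each group had a library at or near 0, and no comparison passed (edgeR adjusted p = 0.851, 0.692 and 0.885). Cyp4a32 held 15, 8 and 15 counts in CTRL, MODEL1 and MODEL2, Cyp4v3 held 21, 23 and 11, and Cyp4f14 held 8, 9 and 12. Cyp4a12a, expressed mainly in males, held 4, 4 and 6. Cyp4f15 held 9, 4 and 0 counts, at least 3.2-fold lower in MODEL2 than in CTRL against 3 counts over the group, with an edgeR adjusted p of 0.325 in the fit without a filter. Cyp4f13 held 2, 10 and 3 counts, 9 of the 10 in MODEL1 library 3. Cyp2u1, which hydroxylates fatty acids, held 15, 1 and 10 counts, with all MODEL1 libraries below CTRL at a ratio of 0.0565 (0.00134 to 0.367). Its edgeR adjusted p in the fit without a filter was 0.0861, and an exon of 4930534D22Rik lies opposite it.

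Neither of the 2 tested enzymes of bile acid synthesis was called, and 2 genes cannot speak for the pathway. Of all tested genes, edgeR called 11.9% higher and 11.0% lower in MODEL1. In MODEL2 it called 8.30% higher and 4.96% lower. Of 6 listed, Cyp7a1 and Cyp8b1 were tested; neither had an unadjusted p under 0.05 by edgeR or a call by DESeq2. Cyp7a1, the rate-limiting enzyme of the main pathway, held 25, 20 and 6 counts in CTRL, 4, 49 and 26 in MODEL1 and 21, 14 and 15 in MODEL2. MODEL1 spanned a range wider than both other groups together, from 15.2 to 208 CPM. Its log2 change was 0.43 ± 0.59 (edgeR adjusted p = 0.658) in MODEL1 and -0.13 ± 0.61 (adjusted p = 0.918) in MODEL2. Cyp8b1, which makes cholic acid, held 24, 6 and 12 counts in CTRL, 9, 6 and 4 in MODEL1 and 2, 4 and 14 in MODEL2. Its log2 change was -1.31 ± 0.67 (edgeR adjusted p = 0.175) and -1.11 ± 0.66 (adjusted p = 0.313). Cyp27a1, the mitochondrial sterol hydroxylase, held 10, 10 and 11 counts in CTRL, MODEL1 and MODEL2, and Cyp7b1, of the alternative pathway, held 9, 10 and 19. Cyp39a1 and Cyp46a1 were at 0.

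Of the sterol and steroid enzymes only Cyp51, which demethylates lanosterol in cholesterol synthesis, passed the filter. It held 21, 19 and 27 counts in CTRL, 10, 10 and 24 in MODEL1 and 14, 9 and 21 in MODEL2. All MODEL1 libraries were below CTRL, narrowly for library 3 at 75.4 CPM against 84.8 in CTRL library 1. The log2 change was -0.87 ± 0.43 (edgeR adjusted p = 0.161) in MODEL1 and -0.70 ± 0.43 (adjusted p = 0.33) in MODEL2. An exon of Akap9 lies opposite it. Cyp17a1, the androgen-forming lyase, held 7, 4 and 2 counts in CTRL, MODEL1 and MODEL2. Cyp2r1, the vitamin D hydroxylase, held 9, 3 and 3. The adrenal and gonadal enzymes Cyp11a1, Cyp11b1, Cyp11b2, Cyp19a1 and Cyp21a1 were at 0.

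By place in the lobule, 4 of 9 listed pericentral P450 genes passed the filter. Cyp1a2 and Cyp2a5, which passed with the help of the model libraries, were called higher in both models, where 11.9% and 8.30% of all tested genes were. Cyp2e1 and Cyp7a1 were not called. Over all 9 listed genes in the fit without a filter, the median log2 fold change was -0.00279 in MODEL1 and 0.00 in MODEL2. The median of all symbols was 0.00 in both. Glutamine synthetase (Glul), a pericentral beta-catenin target that is no P450, held 2, 0 and 12 counts in CTRL, 70, 90 and 62 in MODEL1 and 32, 22 and 16 in MODEL2. Its order of groups was that of Cyp2a5 and Cyp1a2, with log2 fold changes of 3.77 ± 0.56 (edgeR adjusted p = 2.7e-05) and 2.21 ± 0.60 (adjusted p = 0.0162). An exon of Teddm2 lies opposite it. Neither of the 2 periportal P450 genes, Cyp2f2 and Cyp17a1, passed the filter, and neither was called in the fit without one, where edgeR adjusted p for Cyp17a1 was 0.81 in MODEL1 and 0.717 in MODEL2.

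By sex bias, 5 of 11 listed female-biased P450 genes had counts. Cyp2a4 and Cyp2b9, which passed the filter through the libraries of the models, were called higher in both, where 11.9% and 8.30% of all tested genes were. Genes that passed in this way cannot speak for female-biased genes as a set. Cyp17a1, Cyp2c40 and Cyp3a16 held 13, 2 and 2 counts over all libraries. The other 6 were at 0 in every library. None of the 5 male-biased genes, Cyp2d9, Cyp4a12a, Cyp4a12b, Cyp7b1 and Cyp2u1, passed the filter. In the fit without a filter none of them was called, and their median log2 fold change was -0.45 in MODEL1 and -0.51 in MODEL2. In MODEL2, Cyp7b1 (1.02) and Cyp4a12a (0.52) lay above 0. The median over the 5 female-biased genes with counts was 2.57 in MODEL1 and 0.00 in MODEL2. Over all symbols it was 0.00 in both.

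Among 18 genes listed as P450 electron partners and haem synthesis enzymes, 6 passed the filter, and 1 was called higher in each model, where 11.9% and 8.30% of all tested genes were. In the fit without a filter 2 of the 17 with counts were called in each, Pgrmc1 and Cyb5a in MODEL1 and Pgrmc1 and Cyb5r3 in MODEL2, against 4.15% and 2.03% of all symbols. Pgrmc1, a haem-binding protein that associates with P450 enzymes, held 12, 3 and 6 counts in CTRL, 21, 25 and 32 in MODEL1 and 21, 27 and 20 in MODEL2. It rose in both models, by 1.66 ± 0.46 (edgeR adjusted p = 0.0105) and 1.61 ± 0.46 (adjusted p = 0.0221) on the log2 scale. Por, the reductase, held 33, 43 and 26 counts in CTRL, MODEL1 and MODEL2, with log2 changes of 0.14 ± 0.58 and -0.43 ± 0.61 (edgeR adjusted p = 0.898 and 0.711). Cytochrome b5 (Cyb5a), a second electron donor, held 9, 49 and 19 counts, with all MODEL1 libraries above CTRL. It did not pass the filter, and without one its log2 change in MODEL1 was 2.13 ± 0.68 (edgeR adjusted p = 0.0454). Cyb5r3, a reductase of cytochrome b5, was called in MODEL2 only in that fit (0.77 ± 0.22, edgeR adjusted p = 0.0307), and an exon of Gm49463 lies opposite it.

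Of 18 listed regulators of P450 genes, 4 passed the filter and 1 was called lower in MODEL2, where 4.96% of all tested genes were lower than CTRL and 3.41% lower than MODEL1. Bcl6, a repressor of female-biased liver genes, held 52, 34 and 30 counts in CTRL, 61, 62 and 106 in MODEL1 and 17, 16 and 12 in MODEL2. Its groups did not overlap. Bcl6 fell in MODEL2, by a log2 change of -1.45 ± 0.34 against CTRL (edgeR adjusted p = 0.00529) and of -2.17 ± 0.33 against MODEL1 (adjusted p = 0.000189). In MODEL1 it was not called (0.73 ± 0.30, edgeR adjusted p = 0.0848), and an exon of Gm37419 lies opposite it. Nr1i3 (CAR) held 40, 85 and 57 counts with edgeR adjusted p of 0.152 and 0.57, and has an exon of Tomm40l opposite. Ahr, the aryl hydrocarbon receptor that controls Cyp1a2, held 0, 13 and 9 counts, all MODEL1 libraries above CTRL. It did not pass the filter, and without one its edgeR adjusted p was 0.0756 in MODEL1 and 0.197 in MODEL2. An exon of Gm48236 lies opposite it. Nfe2l2 held 15, 25 and 7 counts and Ctnnb1 held 8, 23 and 16. Neither passed the filter or was called without one (edgeR adjusted p = 0.772 and 0.717 for Nfe2l2, 0.667 and 0.717 for Ctnnb1). Plasmid and endogenous transcripts of these 2 genes cannot be told apart.

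Other drug-metabolising genes were listed for comparison. Of 25 other phase 1 genes, 7 passed the filter. In MODEL1 3 were higher and 1 lower, against 11.9% and 11.0% of all tested genes: the epoxide hydrolase Ephx1 (log2 fold change 2.43 ± 0.57), Adh1 (2.21 ± 0.55) and Aldh1a1 (1.88 ± 0.54) rose, with edgeR adjusted p of 0.00278, 0.00517 and 0.0137. Adh1 has an exon of Gm16559 opposite. The carboxylesterase Ces3b fell (-2.65 ± 0.64, edgeR adjusted p = 0.00377). In MODEL2 none of the 7 was called by edgeR or DESeq2 (edgeR called 8.30% of all tested genes higher and 4.96% lower), and 2 had an unadjusted p under 0.05. Of 24 conjugation genes, 6 passed the filter, and 2 were called higher in MODEL1 and 1 in MODEL2. Of all tested genes, 11.9% and 8.30% were called higher in these comparisons. Ugdh, which makes UDP-glucuronate, held 2, 63 and 25 counts, a ratio to CTRL of 26.7 (7.09 to 225) in MODEL1 and 11.7 (2.92 to 102) in MODEL2 (edgeR adjusted p = 0.000334 and 0.0179). Ugt2b34 rose in MODEL1 by 3.57 ± 0.66 (edgeR adjusted p = 0.000331) and was lower in MODEL2 than in MODEL1 by a log2 change of -1.90 ± 0.55 (adjusted p = 0.0387). Albumin (Alb) fell in both models, by 0.99 ± 0.24 and 0.85 ± 0.24 on the log2 scale (edgeR adjusted p = 0.00406 and 0.0199).

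RefSeq promoter windows matched 78 of the 105 P450 symbols, and 58 of the 75 with counts, which had 65 windows. They were searched on both strands for TGACNNNGC, the antioxidant response element core bound by NRF2, for ATCAAAG, the TCF/LEF core used by beta-catenin, and for GCGTG, the dioxin response element core bound by Ahr. TGACNNNGC occurred in 6.15% of the 65 windows and in 12.4% of all 32851, ATCAAAG in 4.62% and 3.73%, and GCGTG in 23.1% and 32.4%. The windows of Cyp2a5, Cyp2a4, Cyp2b9 and Cyp1a2 held none of the 3. Cyp2g1, also called higher in both models, had no RefSeq window and was not searched. TGACNNNGC lay in windows of Cyp2j6, Cyp4f14, Cyp4f39 and Cyp8b1, and ATCAAAG in those of Cyp2c29 and Cyp2c39. These matches are descriptions of the letters in 300 bases around each start.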

How the data were processed

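RNA-seq of 9 mouse livers was used, 3 each of CTRL, MODEL1 and MODEL2. The deposited values are whole-number counts per gene symbol, made by the authors with Trimmomatic 0.38, HISAT2 2.1.0, HTSeq 0.11.2 and mm10, per the submitters' processing notes. The annotation and strand setting are not given in the sources used here.

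From the counts, edgeR 4.0.16 (R 4.3.3) was run over all 9 libraries: filterByExpr (minimum count 10, total 15, proportion 0.7), TMM scaling, quasi-likelihood test, Benjamini-Hochberg adjustment over 2639 genes, calls at 0.05. The common coefficient of variation between libraries was 0.259. Standard errors are the log2 fold change over the square root of F. Ratios of scaled counts carry exact 95% intervals and a floor of 3 counts per group. Positions are from GENCODE M21 (mm10) and promoter windows from RefSeq (GRCm38.p6). The fit was tested on simulated data.

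P450 members, gene lists and tests were chosen with earlier results of these data known. Named were every P450 gene kept by the filter or holding at least 10 counts, up to 3 called genes per list and comparison, and a fixed set of reference genes. Alternatives were DESeq2 1.42.0, RLE scaling, no filter, age as covariate, the replicate number as block, 2 groups alone, libraries rich in Rn45s left out, and each library left out.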

Additional observations from a re-analysis of the deposited data

How the results depend on the processing

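Each tested P450 gene was recomputed under 16 alternatives and each pooled count under 9. Of 240 values for the 15 calls, 187 kept the call, 52 lost it and 1 changed sign. Of 432 values for the 27 differences that were not called, 392 stayed so, 10 became calls and 30 changed sign. Calls in all 16 alternatives were those of Cyp1a2, Cyp2a4, Cyp2a5 and Cyp2b9 in MODEL1, Cyp2a4 in MODEL2, and Cyp2a5 between the models. The count of P450 genes called in MODEL1 stayed between 4 and 8. In MODEL2 against CTRL, where it was 6, it was 1 with age as a covariate, 3 with 2 groups alone and 2 without the libraries rich in Rn45s, and 2 to 5 with 1 library left out. It was lowest there without CTRL library 1 or MODEL2 library 2. In MODEL2 against MODEL1, where it was 3, it was 1 with age, 6 with 2 groups alone and 1 to 4 with 1 library left out, lowest without MODEL1 library 2 or 3 or MODEL2 library 3. Without the libraries rich in Rn45s, the pooled P450 ratio was 2.42 for MODEL1 and 0.457 for MODEL2 against MODEL1. MODEL1 then consists of library 2 alone, whose P450 level of 3420 CPM was the highest against 1673 and 2344 in the others, and in fits it is assumed to vary like the other groups. The cause of the other shifts was not tested.

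With age as a covariate, signs changed for Cyp26c1 (log2 change -0.77 in MODEL1, -1.48 in MODEL2 and -0.71 between the models), Cyp2d40 (-0.56 and -0.10 in the models), Cyp2e1 in MODEL1 (-0.0815), Cyp3a11 and Cyp7a1 in MODEL2 (1.23 and 2.101), and Cyp51, Cyp7a1 and Cyp8b1 between the models (-0.18, 0.23 and -0.26). Without a filter Cyp2e1 in MODEL1 was -0.00279. Without the libraries rich in Rn45s, Cyp7a1 in MODEL2 was 0.17 and Cyp2j5 between the models -0.64. With 1 library left out, log2 changes in MODEL1 ran from -0.37 to 0.31 for Cyp2e1, -0.54 to 1.15 for Cyp2j5 and -0.57 to 0.94 for Cyp7a1. In MODEL2 they ran from -0.55 to 1.14 for Cyp2c67 and -0.55 to 0.17 for Cyp7a1. Between the models they ran from -0.13 to 1.21 for Cyp2j5, -0.18 to 0.56 for Cyp51, -1.07 to 0.41 for Cyp7a1 and -0.92 to 0.65 for Cyp8b1. Same-numbered libraries of different groups correlated at -0.121 to 0.0103 in their deviations from the group means. Differently numbered libraries correlated at -0.0612 to 0.0967. With 3 libraries per group, these values cannot settle whether same-numbered libraries are paired. With the replicate number as a block, 6, 4 and 2 P450 genes were called in the 3 comparisons. At 9.43 to 14.6 CPM for 3 counts, 61 of the 75 P450 symbols with counts did not reach the filter's minimum, and in the fit without a filter Cyp2a12 was the only one of them called, in MODEL1.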
